A study of Homo sapiens with 2 samples.

Results

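The genes described here are 34 enzymes and regulators of cholesterol and fatty acid synthesis, chosen by symbol from a list of pathway members. All 34 were found among the 20985 genes of the deposited RNA-seq table, and all 34 passed the minimum level set for an expressed gene, which 13777 genes of the table passed. The study compared parental HCC827 cells, an established lung adenocarcinoma line with an activating EGFR mutation, with HCC827 ZDR3, a derivative resistant to the EGFR kinase inhibitor gefitinib. Resistance was selected by culture in gefitinib from 10 nM for 1 month, with a 3-fold increase every month up to 1 µM, after which 3 colonies were taken. The labels do not say whether ZDR3 is a single one of these colonies, or whether gefitinib was present when RNA was taken. The growth protocol describes low dialysed serum for a protein labelling experiment and does not say in which serum the sequenced cells grew. Each group held 1 library of polyadenylated RNA, so no difference has a replicate check, and none was tested. The intervals below cover counting error only, and all differences are differences between these 2 libraries.

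Cholesterol is built from acetyl-CoA through mevalonate, isoprenoid units and squalene, which is closed to lanosterol and then trimmed and reduced to cholesterol. Fatty acids are built from the same precursor, by carboxylation to malonyl-CoA and repeated condensation to palmitate, and are then elongated, desaturated and activated as acyl-CoA. Both branches are regulated by the sterol regulatory element binding proteins (SREBPs), which SCAP escorts from the endoplasmic reticulum for cleavage and INSIG proteins retain there when sterols are plentiful. Proliferating tumour cells commonly rely on both branches for membrane lipid.

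Reads assigned to genes numbered 257192607 in the parental library and 243549871 in the resistant one. A level is given in normalised reads, where 1 unit stands for 143 reads in parental and 138 in resistant cells. These levels are not corrected for gene length and serve only to compare the libraries. The log2 ratio is that of the resistant over the parental level after 1 unit was added to each. Epithelial identity genes were read in both libraries, with CDH1 (E-cadherin) at 1271 and 146 units, but 8 of 9 were lower by at least 2-fold in resistant cells, and their summed level was 16096 and 5834 units. The part of that shift in the lipid gene ratios was not tested, and in bulk RNA fewer cells of a type and less RNA per cell cannot be told apart. Of 25 markers of leukocytes, fibroblasts, endothelium, adipocytes and hepatocytes, 5 were expressed, though only 4 of the 5 endothelial markers were found. CD68, from the leukocyte list, was the highest of those expressed, at 155 and 320 units. The others were another leukocyte marker (log2 ratio -1.26), 1 fibroblast marker (-1.88), 1 endothelial marker (0.69) and 1 adipocyte or hepatocyte marker (1.16). Among the markers not expressed, PTPRC, CD3E, COL3A1 and ADIPOQ all lay below 1 unit in both libraries.

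Most of the 34 genes, like most expressed genes, differed by less than 2-fold between the libraries. Within 2-fold were 29 of them (85.3%), beside 79.7% of all expressed genes, while in the resistant library 4 were higher by at least 2-fold and 1 was lower by at least 2-fold. The genes above that fold were ACACA, LSS, FADS3 and ACACB, and the gene below it was SREBF1. The 4 higher genes make up 11.8% of the set, near the 10.6% of all expressed genes that were at least 2-fold higher. The single lower gene is 2.94% of the set, against 9.68% of all expressed genes. The median log2 ratio of the set was -0.19, beside -0.03 over all expressed genes, and 23 of 34 genes (67.6%) had ratios below 0, beside 52.2% of all expressed genes.

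**Figure D1:**
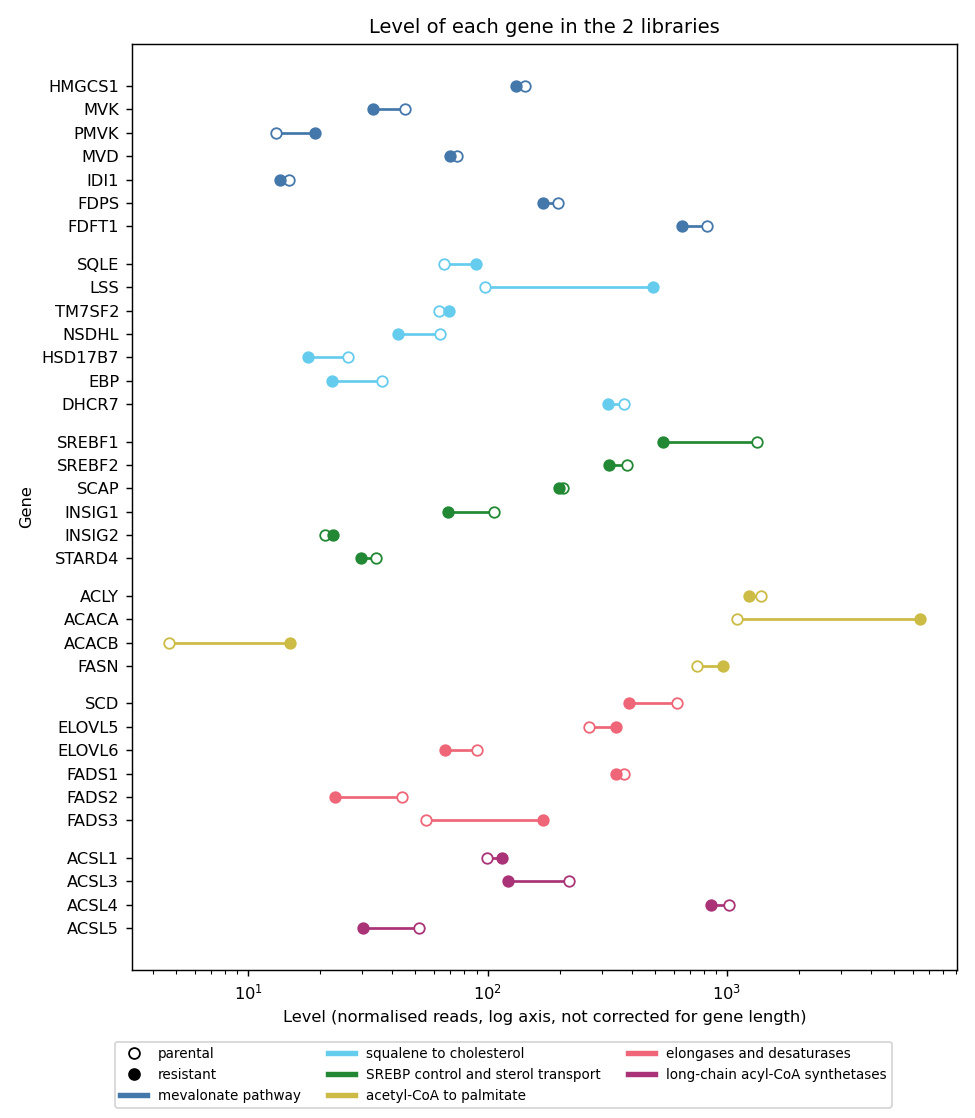
Level of each of the 34 genes in normalised reads (log axis, not corrected for gene length) in the parental (open circle) and the resistant library (filled circle), grouped by role. The longest lines to the right belong to ACACA (1101 to 6391) and LSS (97.2 to 491), and the longest to the left to SREBF1 (1340 to 538).

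The summed level of the set was 10209 units in parental and 14386 in resistant cells, a difference that rested on 1 gene. Without ACACA, which encodes acetyl-CoA carboxylase 1, it was 9107 and 7994. Such sums give long genes more weight, since levels are not corrected for length. The share of all gene reads that fell on the 34 genes was 0.567% (95% Wilson interval 0.566% to 0.568%) in the parental and 0.813% (0.812% to 0.814%) in the resistant library. Without ACACA and LSS, a pair left out after their values were seen, the share was 0.501% and 0.424%, which turned the direction of the summed difference. Counting error was small for these genes. Their read numbers ran from 670 to 879530, and for all 34 the 95% exact (Clopper-Pearson) counting interval of the unadjusted ratio excluded 1. That width says nothing about the spread between cultures, which these data do not give.

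Genes of the mevalonate pathway, which leads from acetyl-CoA to squalene, were all within 2-fold between the libraries. Of the 7 genes 6 had ratios below 0, with a median of -0.13, near the -0.03 of all expressed genes, of which 52.2% were below 0. HMGCS1, the synthase that makes HMG-CoA, was at 144 units in parental and 131 in resistant cells, also a log2 ratio of -0.13. Mevalonate kinase, MVK, was at 45.2 and 33.3 (-0.43), the lowest ratio of this group. PMVK, the next kinase in the chain, went the other way, from 13.1 to 19.0 (0.50). MVD, the decarboxylase that yields isopentenyl diphosphate, was at 74.7 and 69.7, and the isomerase gene IDI1 at 14.8 and 13.5, both with log2 ratios of about -0.1 (-0.10 and -0.12). FDPS, which makes farnesyl diphosphate, was at 197 and 171 (-0.20). FDFT1, squalene synthase and the first enzyme committed to sterols, was at 826 and 647 (-0.35). PMVK alone of the 7 had a ratio above 0, and it was the largest in size.

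Reads of FDPS and IDI1 are the less certain in this group. In GENCODE 29 the exons of FDPS overlap those of RUSC1-AS1 on the opposite strand over 18.6% of their length, those of IDI1 overlap IDI2-AS1 over 14.8%, and whether counting used strand is not given in the sources used here. RUSC1-AS1 itself was at 49.5 units in the parental library.

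Among the 7 enzymes that turn squalene into cholesterol, LSS stood apart from the rest. SQLE, squalene epoxidase, a rate-limiting enzyme of this stretch, was at 66.01 units in parental and 89.7 in resistant cells (0.44). LSS, lanosterol synthase, which closes the ring system on the product of SQLE, was at 97.2 and 491, a log2 ratio of 2.33 and an unadjusted ratio of 5.05 (95% counting interval 4.96 to 5.15). The enzymes after lanosterol did not share that ratio. The sterol reductase gene TM7SF2 was at 62.9 and 68.8 (0.13). NSDHL and HSD17B7, which act in the removal of the methyl groups at carbon C4, were at 63.4 and 42.3 (-0.57) and at 26.2 and 17.8 (-0.54). HSD17B7 has a closely similar pseudogene, so its reads may be shared. EBP, the sterol isomerase, was at 36.3 and 22.5 (-0.66), the lowest ratio among the 14 cholesterol enzymes of the set. DHCR7, which completes one of the final reductions, was at 373 and 320 (-0.22).

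The 14 cholesterol enzymes of the 2 groups together had a median log2 ratio of -0.17, and 1 ratio, that of LSS, was past 2-fold. Below 0 were 10 of the 14 (71.4%), beside 52.2% of all expressed genes. Per kilobase of exon and scaled to library depth (reads per kilobase, RPKM), LSS was at 7.46 and SQLE at 8.52 in the parental library, whereas in the resistant library LSS was at 38.4 and SQLE at 11.8. On that scale the level of LSS relative to SQLE, the enzyme just before it, was 0.876 in parental and 3.26 in resistant cells. Length here is the union of all annotated exons, so the order of 2 genes within a library depends on that choice, here and below. Without length correction, LSS was at 97.2 and SQLE at 66.01 units in the parental library.

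**Figure D2:**
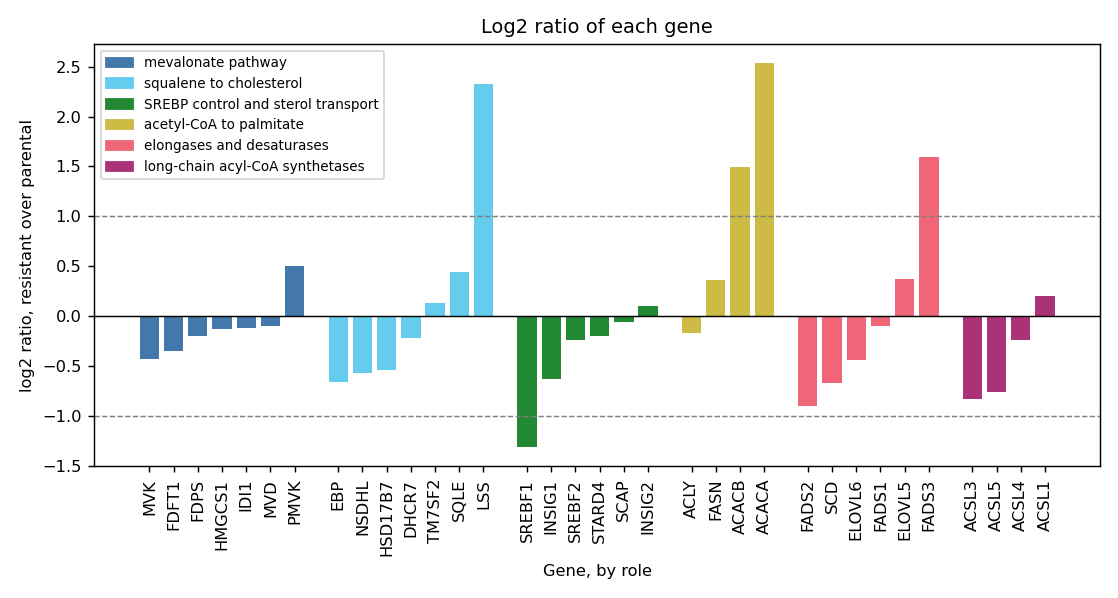
Log2 ratio of resistant over parental level for each of the 34 genes, grouped by role, with dashed lines at 2-fold. ACACA (2.54), LSS (2.33), FADS3 (1.60) and ACACB (1.49) lie above the upper line and SREBF1 (-1.31) below the lower one, while the other 29 lie between them.

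Among 5 regulators of the pathway and the sterol carrier gene STARD4, SREBF1 was the only one past 2-fold. Of these 6 genes 5 had ratios below 0, beside 52.2% of all expressed genes, and the sign of SCAP depended on the scaling (0.0118 with upper quartiles made equal). SREBF1, which encodes SREBP-1, the family member tied mainly to fatty acid synthesis, was at 1340 units in parental and 538 in resistant cells. Its log2 ratio was -1.31 and its unadjusted ratio 0.402 (0.398 to 0.405). SREBF2, which encodes SREBP-2, tied mainly to cholesterol synthesis, was at 381 and 321 (-0.25). Per kilobase of exon, SREBF1 exceeded SREBF2 3.31-fold in parental and 1.58-fold in resistant cells. The exons of SREBF1 overlap those of RAI1 on the opposite strand over 6.92% of their length, and RAI1 was itself at 233 and 139 units (-0.74).

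SCAP, the escort protein, was at 206 and 199 units, a log2 ratio of -0.06 and the smallest difference of the 34 genes. INSIG1, a retention protein whose gene is itself induced by SREBPs, was at 107 and 68.3 (-0.64). INSIG2, its less sterol-responsive relative, was at 20.9 and 22.6 (0.10), so the level of INSIG1 relative to INSIG2 per kilobase of exon was 5.51 in parental and 3.28 in resistant cells. STARD4, a soluble carrier of cholesterol, was at 34.1 and 29.6 (-0.20).

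A promoter window of each SREBF gene is shown because these paralogs differed in ratio. In addition, SREBF2 was 1 of 2 genes of the set with a window that held the letters of a sterol regulatory element. Each run is the 250 bases before a RefSeq start site (GRCh38.p14), written 5′ to 3′ on the strand of the gene. Capitals mark the sterol regulatory element letters TCACNCCAC and the letters CCAAT, the core of the box bound by NF-Y, on either strand (CCAAT reads ATTGG on the other). The motifs do not overlap in these runs. The SREBF2 window is chr22:41832855-41833104 on the plus strand, and its element, TCACCCCAC, begins 133 bases before the start.
SREBF2: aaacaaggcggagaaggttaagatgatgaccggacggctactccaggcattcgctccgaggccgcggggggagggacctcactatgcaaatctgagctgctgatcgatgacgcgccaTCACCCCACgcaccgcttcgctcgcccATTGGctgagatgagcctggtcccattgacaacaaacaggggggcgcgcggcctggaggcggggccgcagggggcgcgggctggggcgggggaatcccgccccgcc
SREBF1: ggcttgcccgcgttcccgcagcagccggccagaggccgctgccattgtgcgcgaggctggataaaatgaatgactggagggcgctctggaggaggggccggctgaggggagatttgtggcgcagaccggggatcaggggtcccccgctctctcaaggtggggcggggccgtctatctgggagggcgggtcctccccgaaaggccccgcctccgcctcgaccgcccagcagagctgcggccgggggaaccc
The SREBF1 window is chr17:17836987-17837236 on the minus strand, and it held neither set of letters. It was the only window listed for SREBF1, and any other start site of that gene was not examined. The absence of the letters therefore holds for this window, not for the gene.

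RefSeq promoters were matched for 31 of the 34 genes, with 46 windows in all. FASN, SQLE and FDFT1 had none, so the shares do not cover them. Promoters on chromosome 8, where SQLE and FDFT1 lie, were left out of the set and of both backgrounds. The element letters stood in the windows of 2 of these 31 genes, SREBF2 and ACSL1 (6.45%), beside 1.09% of 27305 genes with a promoter and 1.24% of the 9791 expressed genes matched by symbol. CCAAT stood in those of 22 genes (71.0%), beside 41.8% of the expressed genes. The GC-box letters GGGCGG, the core bound by SP1, stood in those of 28 genes (90.3%), beside 73.3%. A match is a description of the letters in these windows, genes with several start sites had several windows in which to match, and neither gene with the element letters was past 2-fold. Their log2 ratios were -0.25 for SREBF2 and 0.20 for ACSL1. In ACSL1 only 1 of several windows held the element letters, 242 bases before its start site. By window, the letters stood in 2 of 46 (4.35%), beside 0.893% of the windows of expressed genes.

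Genes of the steps from citrate to palmitate held the highest ratio of the set. ACLY, the ATP citrate lyase that supplies cytosolic acetyl-CoA, was at 1392 units in parental and 1235 in resistant cells (-0.17). ACACA, whose product makes the malonyl-CoA used for synthesis, was at 1101 and 6391, a log2 ratio of 2.54 and an unadjusted ratio of 5.80 (5.77 to 5.83). ACACB, the isoform whose malonyl-CoA restrains import of fatty acids into mitochondria, was at 4.69 and 15.0 (1.49). FASN, the fatty acid synthase, was at 750 and 966 (0.37). Both carboxylase genes were thus at least 2-fold higher, while ACLY before them and FASN after them were within 2-fold.

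On the RPKM scale, ACLY was the highest of the 34 genes in the parental library, at 148, and ACACA was the seventh, at 47.0. In the resistant library ACACA was the highest, at 278, above ACLY at 134 and ACSL4 at 75.6. ACACA was at 1.06 times the level of FASN in the parental library and at 4.76 times in the resistant library on this scale. ACACB was the lowest of the 34 in both libraries, at 0.180 and 0.584, and ACACA stayed far above it, 262-fold in parental and 476-fold in resistant cells. The ratio of ACACB rested on 670 parental and 2062 resistant reads, with a counting interval of 2.93 to 3.49 around an unadjusted ratio of 3.20.

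The elongases and desaturases, which set chain length and the number of double bonds, went in different directions. SCD, the delta-9 desaturase that makes oleate, was at 620 units in parental and 388 in resistant cells (-0.67). ELOVL6, which extends palmitate to stearate, was at 90.4 and 66.4 (-0.44), and ELOVL5, an elongase of polyunsaturated chains, was at 265 and 343 (0.37). FADS1, the delta-5 desaturase, was at 371 and 345 (-0.10). FADS2, the delta-6 desaturase, was at 44.1 and 23.1 (-0.90). FADS3, a relative that desaturates sphingoid bases, was at 55.6 and 170 (1.60), with an unadjusted ratio of 3.07 (2.99 to 3.15).

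The 3 FADS genes lie side by side on chromosome 11, and their ratios went apart. Per kilobase of exon, FADS3 exceeded FADS2 2.21-fold in parental and 12.9-fold in resistant cells. FADS1 exceeded FADS3 4.10-fold in parental and 1.24-fold in resistant cells. FADS1 and FADS2 share 490 bases of exon on opposite strands, 4.79% and 4.44% of their lengths, so a small part of their reads cannot be told apart without strand.

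The promoters of FADS2 and FADS3 are shown since these neighbours had the lowest and the highest ratio among the elongases and desaturases, with the same marking as above.
FADS2: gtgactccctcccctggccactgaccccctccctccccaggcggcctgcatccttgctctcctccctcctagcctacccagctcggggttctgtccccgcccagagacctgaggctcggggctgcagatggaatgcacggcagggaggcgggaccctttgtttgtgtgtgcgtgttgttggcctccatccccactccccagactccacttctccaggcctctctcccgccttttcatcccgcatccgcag
FADS3: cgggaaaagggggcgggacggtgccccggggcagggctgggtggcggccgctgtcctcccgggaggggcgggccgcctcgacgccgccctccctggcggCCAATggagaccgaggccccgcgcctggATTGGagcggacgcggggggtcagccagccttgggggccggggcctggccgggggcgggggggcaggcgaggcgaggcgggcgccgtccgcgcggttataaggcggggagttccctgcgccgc
The FADS2 window is chr11:61816154-61816403 on the plus strand, the second of 2 listed for that gene, and held neither set of letters. The FADS3 window is chr11:61891546-61891795 on the minus strand, and it held 2 CCAAT matches and 4 GGGCGG matches, beside 0 and 1 in that of FADS2. Whether these letters bear on the ratios was not tested.

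The long-chain acyl-CoA synthetases, which activate fatty acids for use in lipids or oxidation, had no member past 2-fold. Ratios below 0 were held by 3 of 4, beside 52.2% of all expressed genes. ACSL3, found at the endoplasmic reticulum and on lipid droplets, was at 218 units in parental and 122 in resistant cells (-0.83). ACSL5 was at 51.5 and 30.1 (-0.76). ACSL4, which prefers arachidonate and whose activity favours ferroptosis, was at 1017 and 859 (-0.24) and was the third highest of the 34 genes per kilobase of exon in the resistant library. ACSL1 was at 99.8 and 114 (0.20). ACSL4 exceeded ACSL3 5.26-fold in parental and 7.93-fold in resistant cells on that scale.

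The 2 genes with the largest ratios, ACACA and LSS, lay among neighbours with ratios of the same size. Gene order was taken from GENCODE 29. On chromosome 17, ACACA stood in an unbroken run of 7 expressed genes at least 2-fold higher, which began at AATF and held TADA2A, DUSP14, SYNRG and DDX52, with ratios from 2.54 to 3.45. ACACA itself was the lowest of that run. Beyond 2 genes of the TBC1D3 family, whose many near-identical copies can share reads (-0.22 and -0.17), MRPL45 (3.11) and SOCS7 (2.30) continued it, so that the 9 genes from AATF to SOCS7 that are not of the TBC1D3 family were all higher by at least 2-fold. The next expressed genes outward were LHX1 (-0.80) on one side and ARHGAP23 (-0.06) on the other.

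LSS stood in a run of 19 expressed genes at least 2-fold higher on chromosome 21, from ADARB1 to PRMT2, with ratios from 1.52 to 4.49 and a median of 2.63. The 10 genes nearest to it were 10 of 10 at least 2-fold higher. With the median of 5 expressed neighbours to either side subtracted, an alternative chosen after seeing the data, the log2 ratio of ACACA was -0.07 and that of LSS -0.29. With 20 neighbours to either side, the planned width, ACACA stayed past 2-fold at 2.64, and LSS was at 0.11. The value of ACACA thus turned on how many neighbours were taken. Of all expressed genes at least 2-fold higher, 11.2% stood in such a run of 5 or more. The part of the neighbourhood in both ratios was not tested.

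**Figure D3:**
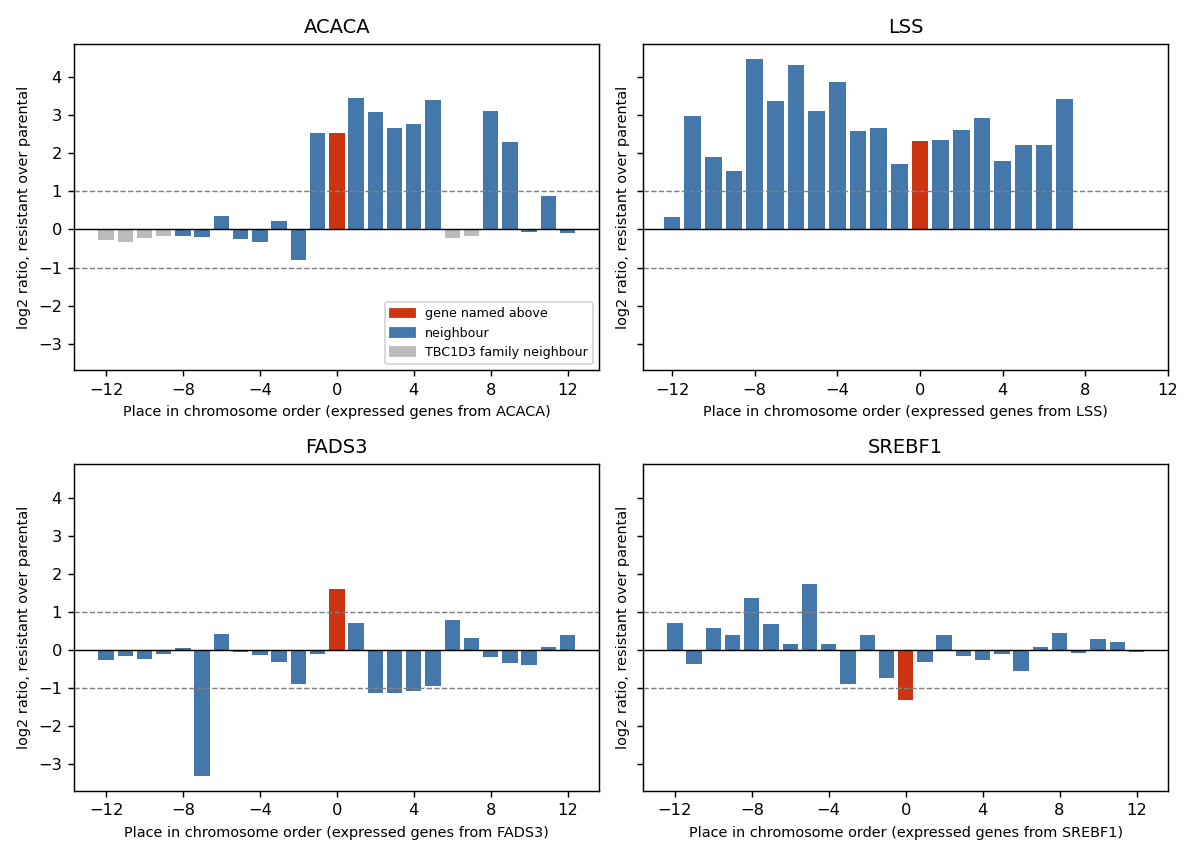
Log2 ratio of resistant over parental level for ACACA, LSS, FADS3 and SREBF1 (red) and up to 12 expressed genes on each side, by place in chromosome order (blue, TBC1D3 family members grey), with dashed lines at 2-fold. ACACA and LSS sit inside blocks of genes above the upper line, while FADS3 and SREBF1 stand alone at their fold.

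FADS3, ACACB and SREBF1 had no such neighbours. None of the 10 genes nearest to FADS3 was at least 2-fold higher, and 3 were at least 2-fold lower. FADS3 minus the median of those neighbours was 2.22. ACACB, with 0 of 10 neighbours at least 2-fold higher, was 1.52 above theirs. SREBF1, with 0 of 10 neighbours at least 2-fold lower, was 1.18 below theirs.

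Genes of the pathways around these 34 were taken from 7 lists with 126 entries, all of them found. The shares of all expressed genes past 2-fold, 10.6% higher and 9.68% lower, are the background to each count below, and in lists this small 1 gene moves a share by several points. Of 10 other cholesterol synthesis enzymes, 1 was higher by at least 2-fold and 0 were lower by that fold. Their median log2 ratio was -0.00144. Within 2-fold were ACAT2 (acetyl-CoA acetyltransferase, -0.73), LBR (a sterol reductase of the nuclear envelope, -0.66) and SC5D (lathosterol oxidase, -0.52). Of 10 genes for SREBP cleavage and for turnover of INSIG proteins or the reductase they bind, 2 were higher by at least 2-fold and 1 lower, and the median was 0.29. PAQR3 was at 29.9 and 99.7 (1.71) and the protease gene MBTPS2, which makes the second cut in SREBPs, at 23.4 and 66.9 (1.47). ERLIN1, an endoplasmic reticulum scaffold that promotes reductase turnover, was at 98.8 and 32.6 (-1.57). RNF139, a ubiquitin ligase of the same membrane, was at 8.47 and 14.6 (0.72).

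Of 17 expressed genes for sterol uptake, storage and efflux, 4 (23.5%) were lower by at least 2-fold, beside 9.68% of all expressed genes, and 0 were higher by that fold. Their median was -0.35. APOE, an apolipoprotein that carries sterols, was at 8.62 and 1.32 (-2.05). MYLIP, a ubiquitin ligase of lipoprotein receptors induced by liver X receptors, was at 15.6 and 5.68 (-1.31), and NR1H3, which encodes liver X receptor alpha, at 43.5 and 20.4 (-1.05). Of 19 other expressed genes of fatty acid synthesis, elongation and desaturation, 1 was higher by at least 2-fold and 1 lower, and the median was 0.08. The elongase gene ELOVL7 was at 68.1 and 153 (1.16) and FA2H, the fatty acid 2-hydroxylase, at 82.9 and 23.6 (-1.77). MECR (0.92), of the mitochondrial synthesis route, and TECR (-0.89), the last enzyme of each elongation cycle, had the next largest values.

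Lists of genes that store, burn or take up fatty acids had medians above 0, as did the lists of SREBP cleavage and of other fatty acid synthesis genes. Ratios above 0 were held by 6587 of all 13777 expressed genes, the background to the counts by sign below. Of 21 expressed glycerolipid and lipid droplet genes 16 had ratios above 0, 2 of them by at least 2-fold, 0 were lower by that fold, and the median was 0.25. The share at least 2-fold higher was 9.52%, beside 10.6% of all expressed genes. PLIN2, the coat protein of lipid droplets, was at 59.9 and 192 (1.66) and AGPAT4, an acyltransferase, at 14.3 and 34.04 (1.20). PLIN5 (-0.96) and CHKA (0.96), a choline kinase, followed. Of 22 expressed fatty acid oxidation genes 14 had ratios above 0, 3 of them by at least 2-fold, 0 were lower by that fold, and the median was 0.26. Here the share at least 2-fold higher was 13.6%, also near the 10.6% of all expressed genes. CPT1A, the carnitine acyltransferase that malonyl-CoA inhibits, was at 28.8 and 108 (1.87), and CPT2, its partner inside mitochondria, at 41.0 and 134 (1.69). PPARGC1A, a coactivator of oxidative metabolism, had 0 parental and 972 resistant reads, and its log2 ratio with 1 unit added was 3.01, the highest of this list. Its unadjusted ratio had a lower limit of 273 by the 95% exact counting interval and of 336 against a floor of 3 parental reads. ACADS, a short-chain acyl-CoA dehydrogenase, had a log2 ratio of 0.97. Of 7 expressed uptake and binding genes 1 was at least 2-fold higher, FABP5, a fatty acid binding protein, at 65.7 and 174 (1.39), and 0 lower, with a median of 0.13. FABP6 (-0.74), SLC27A2 (-0.64) and SLC27A4 (0.64) were the next in size. These lists were not compared with each other by a test.

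**Figure D4:**
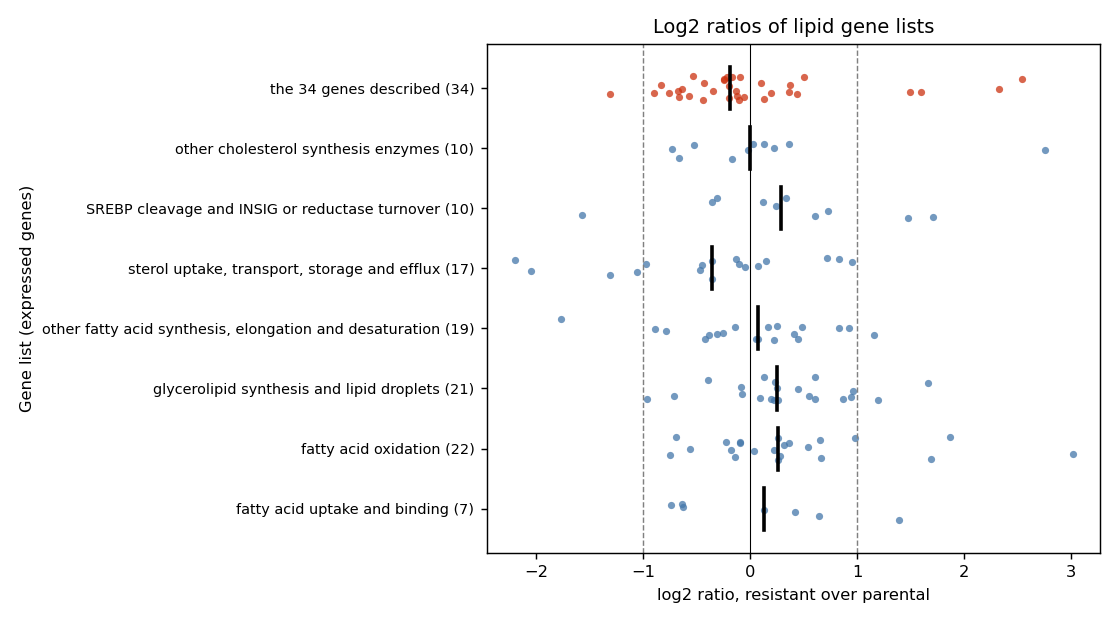
Log2 ratio of resistant over parental level for the expressed genes of each lipid list (1 point per gene, spread vertically at random), with the number of genes in brackets, the median as a black bar and dashed lines at 2-fold. The 34 synthesis genes (red) have a median of -0.19, and 5 of the 7 other lists have medians above 0, from 0.08 to 0.29.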

How the data were processed

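Libraries of polyadenylated RNA were read on an Illumina HiSeq, per the labels' protocols. The submitters' processing notes name TopHat. For its version, the genome build, the counter and the strand setting, a value was not given in the sources used here. Deposited was a table with 1 log2 value per gene and library, and its name calls the values RPKM. Back-transformed, they were whole multiples of 1 step per library (100% of genes under 100000 reads, within 0.1 read), so the authors' log2 values are scaled read numbers not divided by length. The 3504 and 3573 genes at 0.9 reads were set to 0. Above 100000 reads the recovered numbers are approximate.

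Log2 ratios used a pseudocount of 1, and genes with at least 1 unit in at least 1 library were called expressed. With 1 library per group nothing was tested, and a gene past 2-fold was counted. Lengths (union of exons) and gene order came from GENCODE release 29 by Ensembl identifier, or by symbol for 470 of the 823 identifiers not found there, ACACA among them. The release need not be the authors'. The step recovery and the fold count were tested on simulated data. Python 3.11.15, numpy 2.4.6, pandas 2.3.3 and scipy 1.17.1 were used.

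Members and lists were chosen with earlier results of these data known. All 34 members are given. From each other list up to 4 expressed genes with the largest absolute log2 ratio are named, with any gene at 0 reads in 1 library and at least 1 unit in the other. A few genes this rule would name are left out. Alternatives were other pseudocounts, minimum levels, scalings and folds, and subtraction of neighbouring genes.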

Additional observations from a re-analysis of the deposited data

How the results depend on the processing

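The counts of 4 genes at least 2-fold higher and 1 lower, and the identity of these 5 genes, were the same with a pseudocount of 0.1 or 5, without a minimum level or with one of 5, and with 3 other scalings. Across these settings the share of all genes counted ranged from 6.54% to 12.4% higher and from 6.28% to 11.4% lower. The scalings moved all ratios by 0.02 to 0.07 on the log2 scale, and the median of the 34 genes then ranged from -0.16 to -0.12. Among the scalings, SCAP alone changed sign, with upper quartiles made equal. After subtraction of the median of 20 expressed neighbours to either side, LSS was below 2-fold, which left 3 higher and 1 lower. Of all expressed genes, 9.22% were then higher and 8.99% lower. In the same setting 5 genes with small ratios changed sign (FDPS, SCAP, ACLY, FASN and FADS1). With a threshold of 1.5-fold, 7 genes were lower, among them EBP, INSIG1, SCD, FADS2, ACSL3 and ACSL5, beside 18.7% of all expressed genes, and 4 remained higher, beside 18.8%. After subtraction with 5 neighbours to either side, chosen after seeing the data, 2 genes were at least 2-fold higher, ACACB and FADS3. At least 2-fold lower were 3, NSDHL, SREBF1 and STARD4. Of all expressed genes, 9.17% were higher and 9.12% lower with 5 neighbours, so both counts of the set lay near the background. In that setting ACACA (-0.0687) and LSS (-0.29) changed sign, and so did 7 genes with small ratios. No paired analysis was possible because each group held 1 library. Depth was no limit for these 34 genes: the widest counting interval reached 9.27% to either side, for ACACB. The missing replicates are the limit, since the spread between cultures is unknown.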

Other observations

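CPT2 and MBTPS2, lipid genes outside the 34, also stood among neighbours with ratios of the same direction, as ACACA and LSS did. CPT2 lay in a run of 17 from PRPF38A to LRRC42, with a median of 1.69, the same as its own ratio of 1.69. MBTPS2 lay in a run of 7 on the X chromosome from CXorf23 to SMS, of which its own ratio of 1.47 was the median. By contrast CPT1A, PLIN2, ELOVL7 and PPARGC1A were alone at their fold in chromosome order, and so were ERLIN1, FA2H, APOE, MYLIP and NR1H3 among the lower genes.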
